A study of Mus musculus with 22 samples.

Results

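The constitutive proteasome was represented by 36 of the 54532 genes in the count table, those with the symbol Psma, Psmb, Psmc or Psmd followed by a number. The 3 catalytic subunit genes of the immunoproteasome, Psmb8, Psmb9 and Psmb10, were left out by that choice. The core particle had 16 genes, 8 Psma genes for the outer alpha rings and 8 Psmb genes for the inner beta rings. The regulatory particle had 20 genes, 6 Psmc genes for its ATPases and 14 Psmd genes. Not every symbol names a subunit of the ubiquitous proteasome. Psmb11 encodes a catalytic subunit of thymic epithelium, Psma8 an alpha subunit of germ cells, and Psmd5, Psmd9 and Psmd10 chaperones that help to assemble the base of the regulatory particle. All 36 genes were found by name in the GENCODE M21 annotation of GRCm38, as protein-coding genes on 16 chromosomes. Exons of 8 of them overlap a gene on the opposite strand (among them Psmd3, Psmd1, Psmb7 and Psmc3), and those of Psmb5 and Psmd1 a gene on the same strand. Whether counting used the strand is not given in the sources used here, and reads of such partners may be included. Psmb11 had 0 counts in all 22 libraries, where 3 counts, the limit that a count of 0 allows, correspond to at most 0.105 CPM (counts scaled to a common library size). The other 35 genes, 15 of the core and 20 of the regulatory particle, passed the filter on low counts and were tested among 16554 genes.

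The proteasome degrades proteins that carry a ubiquitin chain. The regulatory particle binds the chain through receptors such as Psmd4, cuts it off with the metalloprotease Psmd14, and unfolds the protein with its ring of ATPases, which thread it into the core particle. There, the beta subunits Psmb5, Psmb6 and Psmb7 cut peptide bonds with chymotrypsin-like, caspase-like and trypsin-like activity. In immune cells, interferon signals exchange these for Psmb8, Psmb9 and Psmb10 and add the activator made of Psme1 and Psme2, which favours peptides for class I presentation. When proteasome activity is short, the transcription factor Nfe2l1, freed by the protease Ddi2, drives subunit genes as a group. In microglia, the macrophages of the brain, the proteasome also sets the turnover of inhibitors of inflammatory signalling.

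Microglia were sorted from the brains of male C57BL/6J mice as live CD45mid, CD11b+ and CD11a- cells, and stranded libraries of their polyadenylated RNA were sequenced. The mice were a model of Gulf War Illness: at 10 weeks of age they received pyridostigmine bromide (0.7 mg/kg), a cholinesterase inhibitor, and permethrin (200 mg/kg), an insecticide, daily for 10 days (GW mice), or vehicle (control mice), and were aged to 17.5 months. Cannabidiol (CBD, 30 mg/kg), a cannabinoid of the hemp plant, was given daily for 28 days and then every 2 days for 2 weeks into some of the GW mice, and vehicle into all others, so no control mouse received CBD. All mice were then injected with lipopolysaccharide (LPS, 0.33 mg/kg), a component of the bacterial outer membrane, or with phosphate-buffered saline (PBS), 24 hours before the brains were taken. The groups were Ctrl-PBS (n = 4), Ctrl-LPS (n = 4), GW-PBS (n = 4), GW-LPS (n = 3), GW-CBD-PBS (n = 3) and GW-CBD-LPS (n = 4). Nothing in the labels ties a library to a single mouse, and the p-values therefore reflect how these libraries spread, which may be technical.

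Library totals lay between 28676930 and 40458326 counts. The 10 microglial markers together reached 23320 to 53130 CPM. By group they reached 41100 to 53130 CPM in Ctrl-PBS and 23320 to 35260 in Ctrl-LPS. They reached 41900 to 48060 CPM in GW-PBS and 29850 to 38340 in GW-LPS, so neither pair overlapped. GW-CBD-PBS (48150 to 51360 CPM) and GW-CBD-LPS (41860 to 50090 CPM) did overlap. The part of these differences in the results was not tested. Markers of neurons reached at most 6.42 CPM, of lymphocytes at most 56.5 CPM, of astrocytes at most 265 CPM and of oligodendrocytes at most 613 CPM. Erythroid markers reached at most 1569 CPM (GW-PBS replicate 1), monocyte markers 1963 CPM (Ctrl-PBS replicate 3) and border macrophage markers 573 CPM (GW-LPS replicate 4). In 19 libraries the 12 neutrophil markers summed to between 1.59 and 334 CPM. The remaining 3 had more: Ctrl-PBS replicate 3 reached 26890 CPM, Ctrl-LPS replicate 1 reached 2681 CPM and GW-PBS replicate 1 reached 1671 CPM. Main results are also given without these neutrophil-high libraries.

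In Ctrl-PBS microglia, the 35 detected genes together took 3881 ± 169 CPM (SD, n = 4), of which the core particle had 1697 ± 146 and the regulatory particle 2184 ± 30.6. Per kilobase of exon, the median gene of the core particle stood at 47.5 CPM and that of the regulatory particle at 29.2 CPM. The highest core gene on this scale was Psmb2, a beta ring subunit, at 130 ± 13.1 CPM per kilobase, followed by the catalytic subunit gene Psmb5 at 119.8 ± 9.24. The germ-cell gene Psma8 was the lowest of the core at 2.79 ± 0.56 CPM per kilobase. Among regulatory genes the range ran from 4.83 for the chaperone gene Psmd9 to 92.9 for the ATPase gene Psmc5. Gene length decides part of this order: with the length of the principal transcript in place of all exons, Psmb6 was highest with 236 CPM per kilobase, and the medians were 79.1 for the core and 59.7 for the regulatory particle.

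Promoter sequences, taken from RefSeq for GRCm38.p6 as the 250 bases before and 50 bases after a start site, were found for 29 of the 36 genes, as 31 promoters. The 7 genes without an entry were Psma8, Psmb1, Psmb2, Psmb7, Psmc3, Psmd3 and Psmd7. The letters CCGGAAG, the core of sites for ETS factors, stood on either strand in 10 of 18 regulatory particle promoters (55.6%), in 1 of 13 core promoters (7.69%) and in 2910 of 32851 promoters of all genes (8.86%). CCAAT, the box bound by the factor NF-Y, stood in 7 of 13 core promoters (53.8%), 5 of 18 regulatory promoters (27.8%) and 37.4% of all. TGANNNNGC, the loose form of the antioxidant response element at which Nfe2l1 binds, stood in 10 of 13 core and 8 of 18 regulatory promoters against 41.3% of all, and the strict form TGACTCAGC in 0 of 31 against 0.454% of all. The 250 bases before the start site are shown for 4 genes whose values are given later and which hold both letter runs, one or neither. Psmd4 (chr3:95042615-95042864, minus strand) has the ETS letters from position -125 and the CCAAT box, on the other strand, from -95. Psmd2 (chr16:20651402-20651651, plus strand) has the ETS letters on the other strand from -26, Psmd14 (chr2:61711444-61711693, plus strand) has the CCAAT box on the other strand from -159, and Psmb6 (chr11:70525107-70525356, plus strand) has neither. Capitals mark CCAAT and CCGGAAG or their reverse complements.
Psmd4: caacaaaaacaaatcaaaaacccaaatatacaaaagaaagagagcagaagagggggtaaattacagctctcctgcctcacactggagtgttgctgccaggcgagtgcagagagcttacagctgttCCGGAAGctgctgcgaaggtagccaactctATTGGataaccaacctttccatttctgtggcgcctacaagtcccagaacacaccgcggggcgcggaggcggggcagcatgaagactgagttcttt
Psmd2: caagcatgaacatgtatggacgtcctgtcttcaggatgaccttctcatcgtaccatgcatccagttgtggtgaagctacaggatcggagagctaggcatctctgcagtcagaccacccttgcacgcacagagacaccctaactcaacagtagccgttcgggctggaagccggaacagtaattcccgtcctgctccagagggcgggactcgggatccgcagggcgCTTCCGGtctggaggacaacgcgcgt
Psmd14: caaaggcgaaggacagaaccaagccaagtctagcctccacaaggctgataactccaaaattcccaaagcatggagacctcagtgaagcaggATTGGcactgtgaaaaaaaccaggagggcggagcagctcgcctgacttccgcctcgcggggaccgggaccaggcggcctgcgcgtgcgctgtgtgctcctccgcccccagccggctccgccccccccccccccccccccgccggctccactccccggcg
Psmb6: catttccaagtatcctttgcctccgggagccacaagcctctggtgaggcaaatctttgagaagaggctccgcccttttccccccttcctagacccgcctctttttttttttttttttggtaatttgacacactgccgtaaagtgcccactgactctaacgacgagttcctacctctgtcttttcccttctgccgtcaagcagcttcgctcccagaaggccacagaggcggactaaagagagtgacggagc
These matches describe letters in a window and do not show binding.

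The 3 comparisons of LPS with PBS asked how the genes responded in control, GW and CBD-treated GW microglia. In control mice, 17 of the 35 genes were higher with LPS and 0 were lower (edgeR quasi-likelihood test, Benjamini-Hochberg adjusted p under 0.05), where 10.8% of all tested genes were called higher and 9.62% lower. The calls were unevenly placed: 15 of 20 regulatory particle genes passed against 2 of 15 core particle genes, and 0 of the 7 beta ring genes. The fold changes themselves did not separate the particles, since all 35 were positive and the medians were 0.47 on the log2 scale for the core and 0.49 for the regulatory particle, against -0.02 over all genes. The standard errors were larger for core genes, as in the 0.22 of Psmb5 against the 0.11 of Psmd3. In these bulk samples, fewer cells of a type and less RNA per cell cannot be told apart.

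The lid subunit gene Psmd3, which helps to hold the lid of the regulatory particle on its base, had the smallest p. Psmd3 (ENSMUSG00000017221, chr11:98682554-98695979 in GRCm38) measured 133, 128, 126 and 125 CPM in the Ctrl-PBS libraries and 239.8, 180.4, 199 and 177 CPM in the Ctrl-LPS libraries. Every Ctrl-LPS library lay above every Ctrl-PBS library, for a log2 fold change of 0.64 (SE 0.11, adjusted p = 0.000217). The ATPase gene Psmc1 (ENSMUSG00000021178, chr12:100110154-100123405) measured 111, 116, 119.8 and 117 CPM with PBS and 230.1, 144, 168 and 168 CPM with LPS, again without overlap (0.62, SE 0.11, adjusted p = 0.000503). Psmd3 and Psmc1 kept their calls in all 16 alternative fits of this comparison. They were followed by the ATPase gene Psmc4, with 131 ± 4.99 CPM (SD, n = 4) against 206 ± 43.1 CPM (SD, n = 4) and a log2 fold change of 0.66 (SE 0.14, adjusted p = 0.00203). The lid genes Psmd7 and Psmd12 rose by 0.60 and 0.57 on the log2 scale (adjusted p = 0.00272 and 0.00463).

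Genes of the ubiquitin-handling steps were among those called. The ubiquitin receptor gene Psmd4 measured 135, 149.6, 140.2 and 137 CPM with PBS and 246, 172, 188 and 233 CPM with LPS (log2 fold change 0.58, SE 0.14, adjusted p = 0.00664). The lid deubiquitinase gene Psmd14 measured 77.5, 66.7, 78.3 and 67.0 CPM with PBS and 152, 79.6, 112 and 98.5 CPM with LPS (0.61, SE 0.17, adjusted p = 0.0146). In both genes all 4 Ctrl-LPS libraries lay above all Ctrl-PBS libraries, with replicate 2 lowest and replicate 1 highest, and the lowest Psmd14 value, 79.6 CPM, was close to the highest with PBS, 78.3 CPM. The call of Psmd14 was lost without Ctrl-LPS replicate 1. The large scaffold genes of the base passed more narrowly. Psmd2 measured 239, 168, 230.5 and 214 CPM with PBS and 338, 273, 327 and 264 CPM with LPS (0.50, SE 0.17, adjusted p = 0.0442), and its call was lost in 11 of 16 alternative fits, among them those without any 1 library other than Ctrl-LPS replicates 2 and 4. Psmd1 rose by 0.42 (SE 0.14, adjusted p = 0.037), from 116 ± 16.2 CPM (SD, n = 4) to 156 ± 21.7 CPM (SD, n = 4). Both scaffold genes kept the groups apart. The call of Psmd1 was lost in 9 of 16 alternative fits. Among them were those without replicates 2 or 3 of Ctrl-PBS, without replicates 1 or 3 of Ctrl-LPS, and without the 3 neutrophil-high libraries.

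The other regulatory genes called higher were the ATPase genes Psmc5 (log2 fold change 0.63), Psmc3 (0.39) and Psmc2 (0.38) and the lid genes Psmd13 (0.48), Psmd8 (0.56) and Psmd6 (0.48). Of these, Psmc5 and Psmd13 kept their calls without any single library. Psmc3 and Psmc2 lost theirs without any 1 library other than replicates 2, Psmd8 without replicates 1 or 4 of either group, and Psmd6 without Ctrl-PBS replicate 3 or replicates 1 or 4 of Ctrl-LPS. The 5 regulatory genes that did not pass were the ATPase gene Psmc6 (0.19), the lid gene Psmd11 (0.33) and the 3 assembly chaperones, Psmd5 (0.26, adjusted p = 0.0921), Psmd9 (0.22) and Psmd10 (0.15). By overlap alone, 17 genes had all Ctrl-LPS libraries above all Ctrl-PBS libraries, 15 regulatory and 2 core, against 12.2% of all genes. Psmd5 was among them and Psmc2 was not.

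In the core particle, the alpha ring genes Psma6 and Psma4 were called. Psma6 measured 118, 134, 126 and 116 CPM with PBS and 279, 147, 157 and 220.1 CPM with LPS (log2 fold change 0.70, SE 0.20, adjusted p = 0.0161), the largest fold change of the 35. The groups did not overlap, with Ctrl-LPS replicate 1 highest, and the call was lost without that library. Psma4 went from 84.2 ± 5.18 CPM (SD, n = 4) to 120.2 ± 25.7 CPM (SD, n = 4) (0.51, adjusted p = 0.0388) and lost its call in 11 of 16 alternatives, among them those without any 1 library other than Ctrl-LPS replicate 2, and turned to -0.005 in another, a fit with ribosomal protein sum (the summed level of cytosolic ribosomal protein genes in a library) as covariate.

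The catalytic subunits did not pass in the main fit or with DESeq2. Limma voom called Psmb5, Psmb6 and Psmb7 higher, where 15.4% of all genes were. The fit with ribosomal protein sum as covariate called Psmb6 lower. Psmb5 measured 97.1, 115, 114 and 105 CPM with PBS and 194, 108, 142 and 159 CPM with LPS (log2 difference 0.48, SE 0.22, adjusted p = 0.13). Psmb6 measured 172, 212, 190.5 and 180.0 CPM with PBS and 361, 189, 210.2 and 285 CPM with LPS (0.47, SE 0.21, adjusted p = 0.123). In both, Ctrl-LPS replicates 1 and 4 were above every Ctrl-PBS library, while replicate 2 lay inside the Ctrl-PBS range, as did replicate 3 for Psmb6. Psmb7 stood at 37.4 ± 1.14 CPM (SD, n = 4) against 53.2 ± 11.6 CPM (SD, n = 4) (0.51, adjusted p = 0.0789). Psma8 stood at 6.95 ± 1.41 CPM (SD, n = 4) and 7.87 ± 2.69 CPM (SD, n = 4) (0.18, adjusted p = 0.704).

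Ctrl-LPS replicate 1 was the highest library for most of these genes and was also among those with raised neutrophil markers, and it had the lowest sum of microglial markers. Their part in the result was not tested. Without it, 8 genes were called, all of the regulatory particle (Psmc1, Psmc4, Psmc5, Psmd3, Psmd4, Psmd7, Psmd12 and Psmd13), where 7.15% of all genes were called higher. Without Ctrl-PBS replicate 3, 11 were called, against 8.65% of all genes higher. Without all 3 neutrophil-high libraries, 5 were called (Psmc1, Psmc4, Psmd3, Psmd4 and Psmd7), against 7.11% of all genes, and the medians were 0.32 for the core and 0.38 for the regulatory particle, still positive in 15 of 15 core and 19 of 20 regulatory genes. With other tests the split between particles was smaller or the same: DESeq2 called 18 genes higher, 3 core and 15 regulatory, against 10.8% of all genes, and limma voom with quality weights called 28 genes higher, 11 core and 17 regulatory, against 15.4% of all genes.

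**Figure D1:**
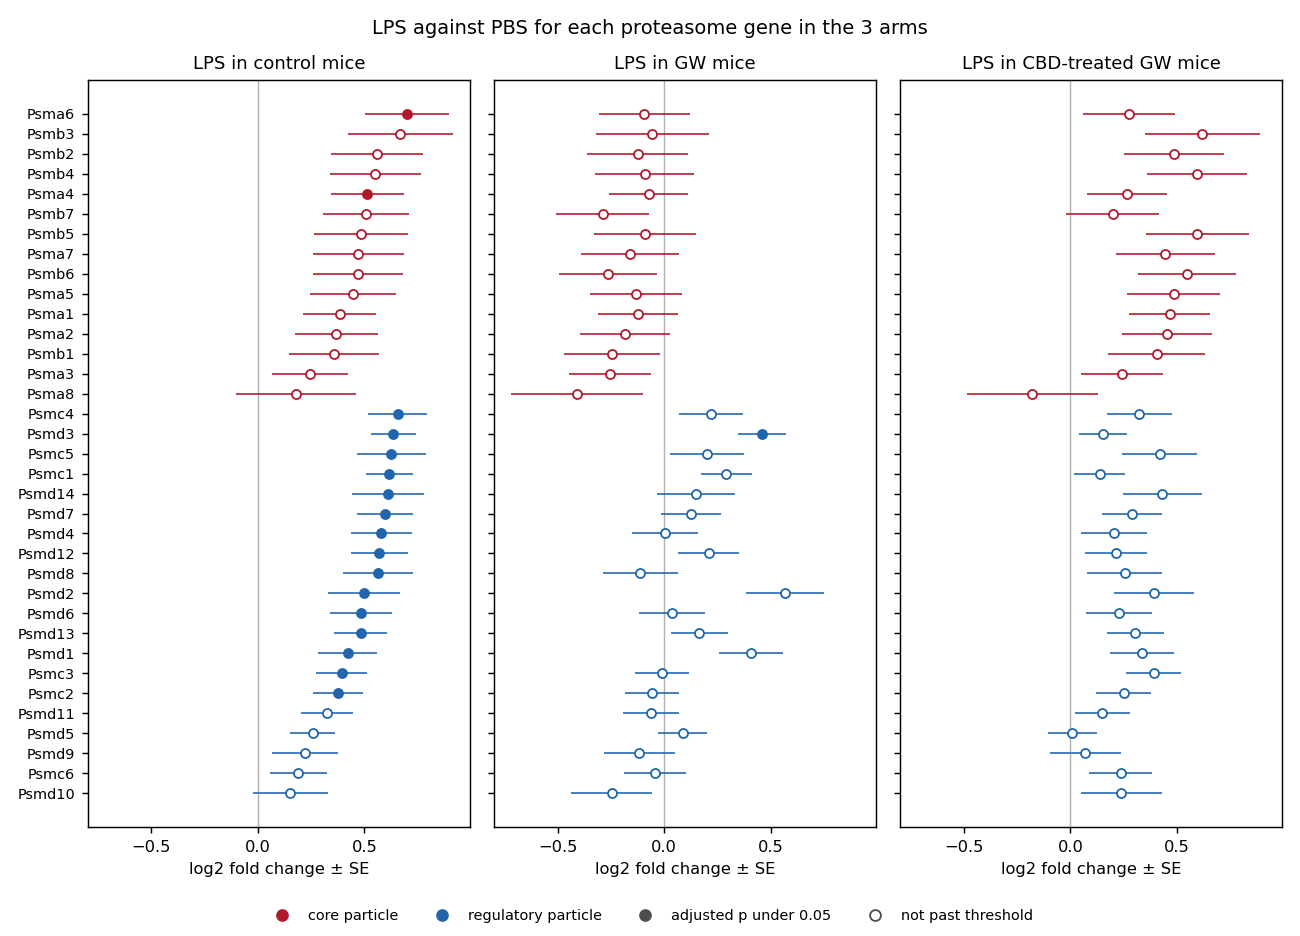
Log2 fold change of LPS against PBS (x axis, ± SE) for each of the 35 tested genes (rows) in control, GW and CBD-treated GW mice. Filled points passed adjusted p under 0.05: 17 in control mice, 1 (Psmd3) in GW mice and 0 in CBD-treated GW mice, and the core genes have the longer error bars.

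In GW mice, Psmd3 alone passed with LPS, where 4.45% of all tested genes were called higher and 5.07% lower. It measured 122, 142, 118 and 133 CPM in GW-PBS and 182, 174 and 175 CPM in GW-LPS, without overlap (log2 fold change 0.46, SE 0.11, adjusted p = 0.0135). That call was lost without GW-LPS replicate 2 (0.42, adjusted p = 0.0517, with 2.83% of all genes called higher) and when only these groups were fitted (adjusted p = 0.0969). The core particle genes had a median of -0.13, with 0 of 15 positive, and the regulatory genes a median of 0.11, with 13 of 20 positive. The sign of the core median rested on GW-PBS replicate 1, the highest GW-PBS library for 14 core genes: without it the core median was 0.06, with 9 of 15 positive, and the regulatory median 0.17. Other libraries moved the medians the other way: they were -0.25 and 0.03 without GW-PBS replicate 2, -0.24 and 0.06 without GW-LPS replicate 2, and -0.21 and 0.04 without GW-LPS replicate 4. The core median was -0.20 without GW-PBS replicate 3 and -0.05 without GW-LPS replicate 3.

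Next in order of p were the scaffold genes and an ATPase gene. Psmd2 measured 147, 254, 218 and 190.0 CPM with PBS and 359, 259.9 and 280.0 CPM with LPS, without overlap, for a log2 difference of 0.57 (SE 0.18, adjusted p = 0.0551). Without GW-PBS replicate 2 it passed (0.69, adjusted p = 0.0196) and 2 genes were called, against 7.23% of all genes. Psmd1 stood at 116 ± 14.3 CPM (SD, n = 4) and 154 ± 24.7 CPM (SD, n = 3) (0.41, SE 0.15, adjusted p = 0.0921). Psmc1 measured 119, 120.2, 122 and 114 CPM with PBS and 146, 147 and 144 CPM with LPS, without overlap (0.29, SE 0.12, adjusted p = 0.132). By overlap, 4 genes had all GW-LPS libraries above all GW-PBS libraries (Psmc1, Psmd2, Psmd3 and Psmd13), all regulatory, which was 4 of 35 against 9.22% of all genes. The receptor, deubiquitinase and catalytic genes did not pass: Psmd4 at 0.00, Psmd14 at 0.15, Psmb5 at -0.09, Psmb6 at -0.26 and Psmb7 at -0.29 (adjusted p from 0.454 to 0.992). Limma voom called 6 genes higher, all regulatory (Psmc1, Psmc4, Psmc5, Psmd1, Psmd2 and Psmd3), against 10.9% of all genes, and gave a core median of 0.08. DESeq2 called Psmd2 and Psmd3, against 6.71% of all genes. Without the 3 neutrophil-high libraries, Psmd3 was still the 1 gene called (0.41, adjusted p = 0.0263), against 2.9% of all genes.

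In CBD-treated GW mice, 0 of 35 genes passed with edgeR, where 0.393% of all genes were called higher. An unadjusted p under 0.05 was seen for 14 of the 35, against 1821 of all 16554 genes. DESeq2 called 0, against 2.09% of all genes, and limma voom 21 (10 core and 11 regulatory), against 12.5% of all genes. All but Psma8 had a positive log2 difference, and the medians were 0.46 for the core and 0.25 for the regulatory particle. With ribosomal protein sum as covariate they were -0.01 and 0.03. The ATPase gene Psmc3 had the smallest p: it measured 187, 216 and 188 CPM with PBS and 249, 252, 223 and 309 CPM with LPS, without overlap (0.39, SE 0.13, adjusted p = 0.228). Psmb5 measured 70.6, 96.7 and 84.3 CPM with PBS and 117, 105, 103 and 182 CPM with LPS (0.60, SE 0.24, adjusted p = 0.348). The groups were apart, with GW-CBD-LPS replicate 4 far above the other 3. The beta ring gene Psmb4 had the same log2 difference of 0.60 (adjusted p = 0.332). The other catalytic, scaffold, receptor and deubiquitinase genes stood at 0.55 for Psmb6, 0.20 for Psmb7, 0.34 for Psmd1, 0.39 for Psmd2, 0.21 for Psmd4 and 0.43 for Psmd14, with adjusted p of at least 0.348. By overlap, 10 genes were higher in all GW-CBD-LPS libraries, 7 core (Psma1, Psma2, Psma5, Psmb3, Psmb4, Psmb5 and Psmb6) and 3 regulatory (Psmc2, Psmc3 and Psmd13), against 8.37% of all genes. Without GW-CBD-LPS replicate 4, the medians were 0.29 for the core and 0.16 for the regulatory particle. Without the 3 neutrophil-high libraries, none of which is in these groups, 0 genes were called, against 0.867% of all genes.

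**Figure D2:**
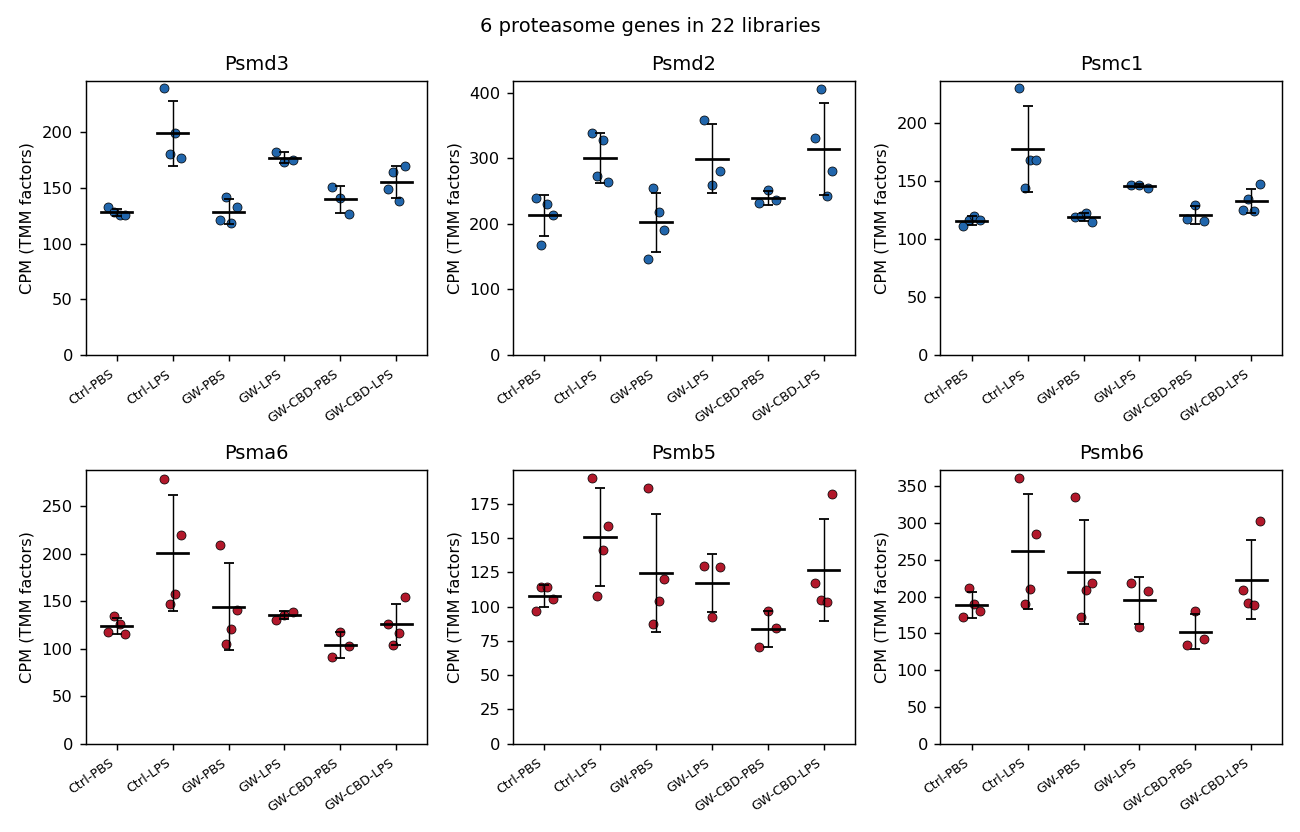
CPM (y axis, from 0) of 3 regulatory genes (Psmd3, Psmd2, Psmc1) and 3 core genes (Psma6, Psmb5, Psmb6) in the 22 libraries by group. Points are libraries, bars the mean ± SD. Psmd3 and Psmc1 are tight within Ctrl-PBS, and Ctrl-LPS replicate 1, GW-PBS replicate 1 and GW-CBD-LPS replicate 4 stand highest of their groups in the core genes.

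The response to LPS was not shown to differ between the arms. The interaction of GW exposure and LPS passed for 0 of 35 genes with edgeR, DESeq2 and limma voom, and for 0% of all genes with edgeR. It reached an unadjusted p under 0.05 for 13 of the 35, against 2099 of all 16554 genes. Its medians were -0.60 for the core and -0.39 for the regulatory particle, and -0.24 and -0.18 without the 3 neutrophil-high libraries. With ribosomal protein sum as covariate the core median turned to 0.10 and the regulatory median was -0.07. The smallest p belonged to the lid gene Psmd8 (log2 difference of differences -0.68, SE 0.24, adjusted p = 0.353), then to Psmd4 (-0.58) and Psma6 (-0.79). The interaction of CBD and LPS passed for 0 of 35 genes with edgeR and DESeq2 and for 1 (Psmb6, higher) with limma voom, where edgeR called 0.0181% of all genes and limma voom 7.74% higher. Its smallest p values were those of Psmb6 (0.81, SE 0.33, adjusted p = 0.259), Psma1 (0.59) and Psmc3 (0.40), and its medians were 0.61 for the core and 0.19 for the regulatory particle. They were 0.40 and 0.10 without GW-PBS replicate 1, and the same without all 3 neutrophil-high libraries. Without GW-CBD-LPS replicate 4 they were 0.46 and 0.09, with limma voom 0.33 and 0.05, and with ribosomal protein sum as covariate 0.12 and -0.07. Without GW-LPS replicate 3 the regulatory median was 0.08.

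The comparisons of exposure and of CBD at a fixed state gave no calls. GW against control microglia without LPS had 0 genes called by edgeR, DESeq2 or limma voom. It also had 0 at an unadjusted p under 0.05, against 621 of all 16554 genes. The medians were 0.16 for the core and 0.08 for the regulatory particle. Again GW-PBS replicate 1 set the sign of the core, whose median was -0.03 without it, with a regulatory median of 0.01. Without GW-PBS replicate 2 the medians were 0.28 and 0.14. The smallest p were those of Psmb6 (0.31), Psmd6 (0.18) and Psmd7 (0.16), each with an adjusted p of 1. The receptor gene Psmd4 stood at 0.17, Psmd14 at 0.12, Psmb5 at 0.21, Psmb7 at 0.13, Psmd1 at 0.00 and Psmd2 at -0.07. No gene kept these groups apart in either direction, against 1.1% of all genes higher and 0.967% lower in every GW-PBS library.

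With LPS, all 35 genes were lower in GW than in control microglia as point estimates, and 0 passed (edgeR, smallest adjusted p = 0.31), where 0% of all genes were called. An unadjusted p under 0.05 was seen for 15 of the 35, 5 core and 10 regulatory, against 2267 of all 16554 genes. DESeq2 called 0 and limma voom 1, Psmb7, against 1.47% of all genes called lower by limma voom. Psmb7 measured 66.3, 39.0, 49.9 and 57.7 CPM in Ctrl-LPS and 39.1, 28.3 and 33.2 CPM in GW-LPS, where the highest GW-LPS value just passed the lowest Ctrl-LPS value (log2 difference -0.67, SE 0.22, adjusted p = 0.31). Psmc3 (-0.38) and Psmd8 (-0.51) came next. The scaffold genes Psmd1 (-0.01) and Psmd2 (-0.01) were nearly level, while Psmb5 stood at -0.36, Psmb6 at -0.42, Psmd4 at -0.41 and Psmd14 at -0.35. Psmd8 measured 262, 166, 174 and 241 CPM in Ctrl-LPS and 149, 147 and 147 CPM in GW-LPS and kept the groups apart, as did Psma6 and Psmd4, 3 of 35 genes against 6.25% of all genes. The medians were -0.45 for the core and -0.29 for the regulatory particle, and -0.29 and -0.17 without Ctrl-LPS replicate 1. Without GW-LPS replicate 3 the regulatory median was -0.19. With ribosomal protein sum as covariate, the direction of the core turned, with a median of 0.02 and 8 of 15 genes positive, and the regulatory median was -0.09. This comparison shares its Ctrl-LPS libraries with the LPS comparison in control mice.

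CBD without LPS gave 0 calls (edgeR, DESeq2 and limma voom), where 0% of all genes were called by edgeR. It gave 8 genes at an unadjusted p under 0.05, all of the core particle, against 1569 of all 16554 genes. The core median was -0.45, with 0 of 15 positive, and the regulatory median -0.15. Psmb6 had the smallest p: it measured 335, 173, 208 and 218 CPM in GW-PBS and 134, 179.9 and 143 CPM in GW-CBD-PBS (-0.62, SE 0.23, adjusted p = 0.524). The groups overlapped, with GW-PBS replicate 1 far above all other libraries of the pair. Psmb3 (-0.66) and Psmb5 (-0.57) followed with the same adjusted p. Psmd1 (0.18) and Psmd2 (0.24) had the other sign, and Psmb7 stood at -0.25, Psmd4 at -0.14 and Psmd14 at -0.18. Without GW-PBS replicate 1 the medians were -0.23 and -0.06, and without GW-CBD-PBS replicate 4 the regulatory median was -0.09. With ribosomal protein sum as covariate, both particles turned: the medians were 0.04 for the core, with 12 of 15 genes positive, and 0.09 for the regulatory particle, with 20 of 20 positive. Psmd13 alone was lower in all GW-CBD-PBS libraries, 1 of 35 genes against 5% of all genes.

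CBD with LPS also gave 0 calls with edgeR and DESeq2, where edgeR called 2.31% of all genes. Psmc3 was the 1 of 35 genes at an unadjusted p under 0.05 (0.28, SE 0.13, adjusted p = 0.319), against 2383 of all 16554 genes. Limma voom called Psmd3 lower, against 10% of all genes. Psmd3 measured 182, 174 and 175 CPM in GW-LPS and 149, 164, 138 and 169 CPM in GW-CBD-LPS. Every GW-CBD-LPS library lay below every GW-LPS library (-0.19, SE 0.11, adjusted p = 0.489), which was so for 1 of 35 genes against 6.34% of all genes. The medians were 0.18 for the core, with Psma1 at 0.28, and 0.01 for the regulatory particle. Without GW-CBD-LPS replicate 4 these medians were 0.00 and -0.08. The core median was 0.03 without GW-LPS replicate 3 and 0.28 without GW-CBD-LPS replicate 2, and the regulatory median lay between -0.08 and 0.09 without any 1 library. The catalytic genes stood at 0.12 (Psmb5), 0.19 (Psmb6) and 0.24 (Psmb7), and Psmd1, Psmd2, Psmd4 and Psmd14 between 0.06 and 0.11. With ribosomal protein sum as covariate, Psma1 (0.30) and Psmc3 (0.29) were called higher, against 3.37% of all genes. 

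Averaged per library, the particles showed which libraries carried these values. The mean log2 CPM of the 15 core genes, set against its mean over Ctrl-PBS, was 0.85, 0.07, 0.25 and 0.54 in the Ctrl-LPS libraries, while that of the 20 regulatory genes was 0.74, 0.17, 0.41 and 0.47. In GW-PBS the core stood at 0.61, -0.24, -0.01 and 0.15 and the regulatory particle at 0.23, -0.07, 0.02 and 0.09. Among all 22 libraries, the core of GW-PBS replicate 1 was second to that of Ctrl-LPS replicate 1. In GW-LPS the core was at 0.14, -0.29 and 0.09 and the regulatory particle at 0.29, 0.04 and 0.23. In GW-CBD-PBS the core was at -0.46, -0.07 and -0.31 and the regulatory particle at -0.09, 0.07 and -0.10. In GW-CBD-LPS the core was at 0.03, -0.12, -0.04 and 0.52 and the regulatory particle at 0.18, 0.17, 0.06 and 0.42. The difference of core minus regulatory particle ran from -0.08 to 0.11 in Ctrl-PBS and was below that range in all 3 GW-LPS libraries (-0.33 to -0.14) and all 3 GW-CBD-PBS libraries (-0.36 to -0.15). It was also below that range in 3 of 4 GW-CBD-LPS libraries, 2 of 4 Ctrl-LPS libraries and 1 of 4 GW-PBS libraries.

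**Figure D3:**
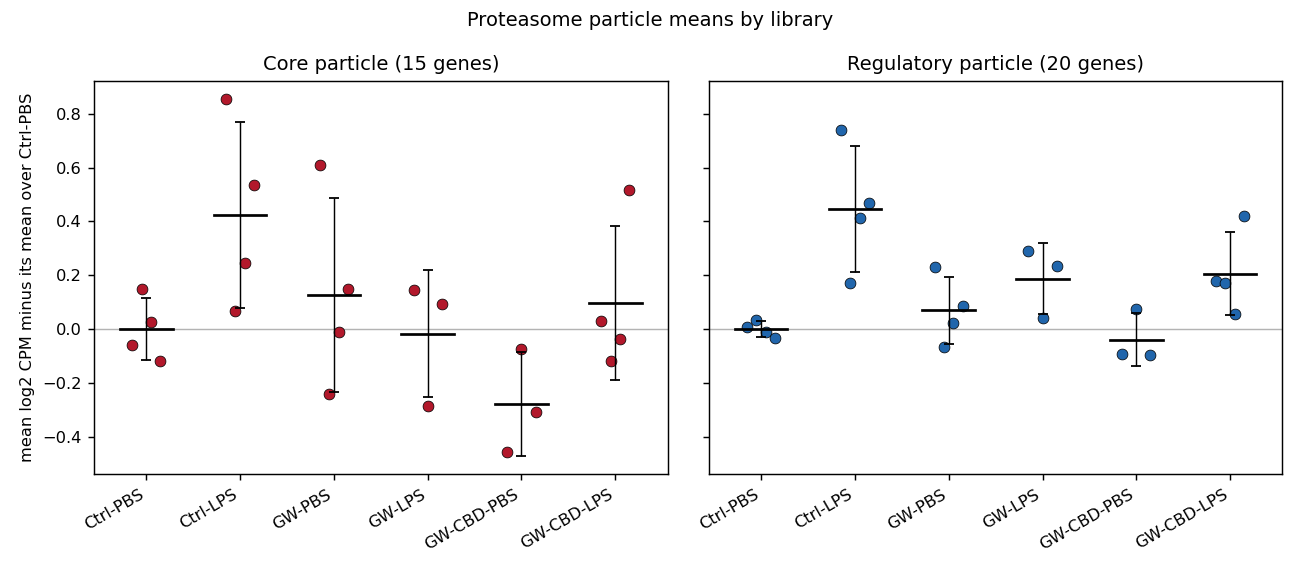
Mean log2 CPM of the core (left) and regulatory (right) particle genes minus their mean over Ctrl-PBS, by library (points) and group (bars, mean ± SD). The regulatory particle spans -0.10 to 0.74 and the core -0.46 to 0.85, and GW-PBS replicate 1 (0.61 in the core) is the highest of its group.

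Core and regulatory genes also differed in how they varied between libraries of 1 group. The pooled within-group SD of log2 CPM had a median of 0.32 over core genes and 0.19 over regulatory genes, against 0.24 over 8317 genes that averaged 10 CPM or more. The core genes moved with the cytosolic ribosomal protein genes, a pattern not shown to be particular to them. Over the 22 libraries, as deviations from group means, the Pearson r of a gene with the ribosomal protein sum was 0.92 to 0.98 for the 14 core genes other than Psma8, which had -0.10. For regulatory genes it had a median of 0.81 and ran from -0.39 for Psmd2, -0.27 for Psmd1 and 0.15 for Psmd3 up to 0.96 for Psmd8, and over all 8317 genes the median was -0.07. These are descriptions of points that share library, depth and normalization. Over the 35 genes the r with the ribosomal sum was lower for longer principal transcripts (Spearman rho -0.63). Length did not order all genes: Psmd1 and Psmd2 (3112 and 2961 bases) had the lowest r, but Psma2 (2911 bases) had 0.96, Psma3 (2846 bases) 0.94, Psmd11 (2848 bases) 0.81 and Psmd5 (4397 bases) 0.57.

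The ribosomal protein sum moved with LPS as well. It was 0.80 ± 0.43 (SD, n = 4) above Ctrl-PBS on the log2 scale in Ctrl-LPS. In control mice 47 of 85 tested ribosomal protein genes were called higher, against 10.8% of all genes, with a median log2 fold change of 0.80. In GW mice 0 of 85 were called higher, against 4.45% of all genes, and the median was -0.14. With that sum as a covariate, LPS in control mice called 4 proteasome genes higher, Psmc1, Psmd1, Psmd2 and Psmd3, against 11.8% of all genes, and 5 lower, against 10.7% of all genes. The 5 were Psma2 (-0.27), Psma3 (-0.31), Psmb1 (-0.33), Psmb6 (-0.25) and Psmd10 (-0.39). The median was then -0.17 for the core and 0.16 for the regulatory particle. In GW mice the same 4 genes, Psmc1, Psmd1, Psmd2 and Psmd3, were called higher in this fit, against 9.78% of all genes. Psmb6 was called lower, and the share of all genes called lower in this fit is not given here. In CBD-treated GW mice it called 0 genes, against 0.0423% of all genes higher, and the medians were -0.01 for the core, with 7 of 15 genes positive, and 0.03 for the regulatory particle, with 12 of 20 positive. The part of the ribosomal protein sum in the results was not tested otherwise. The nuclear respiratory chain genes, with 81 tested, had medians of 0.435 with LPS in control mice and -0.20 in GW mice. Their medians were 0.67 with LPS in CBD-treated GW mice and -0.76 for CBD without LPS. Their sum was 10010 CPM in Ctrl-LPS replicate 1, 9558 in GW-PBS replicate 1 and 10320, the highest of all libraries, in GW-CBD-LPS replicate 4. Their part in the results was not tested.

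**Figure D4:**
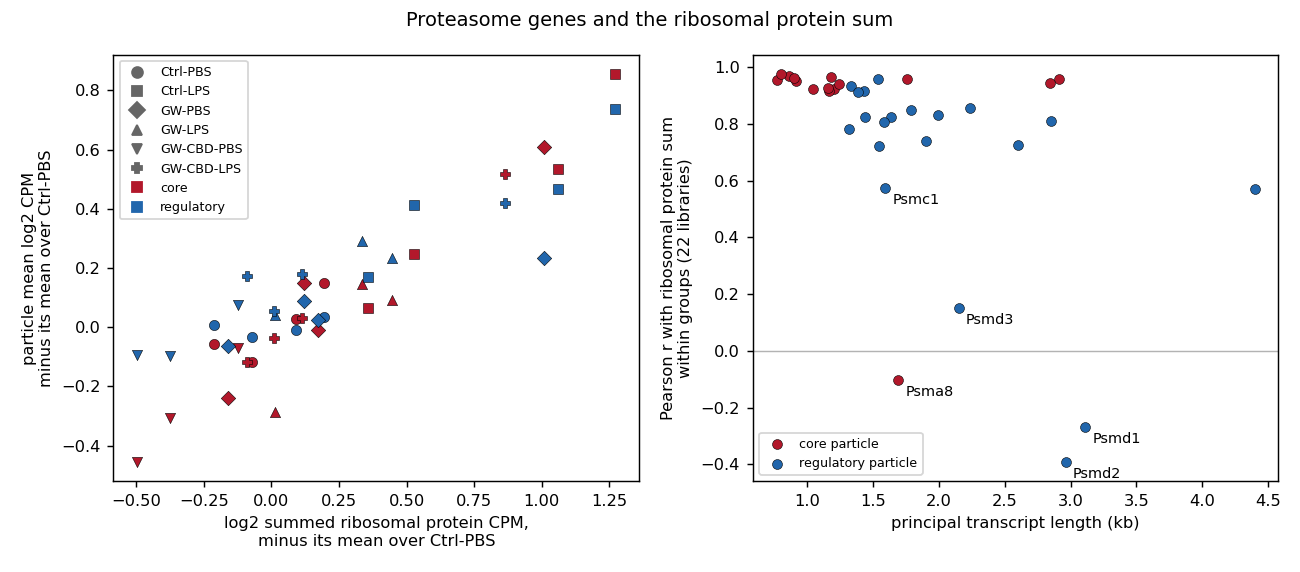
Left, particle mean (y axis, log2 CPM minus the Ctrl-PBS mean) against the log2 ribosomal protein sum on the same scale, 22 libraries, core in red and regulatory in blue. Right, Pearson r of each of 35 genes with that sum within groups against the length of its principal transcript, with Psmd1, Psmd2, Psmd3 and Psma8 far below the other genes.

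Other genes of the pathway were read from lists of their known members. With LPS, 10.8% of all tested genes were called higher and 9.62% lower in control mice. In GW mice these shares were 4.45% and 5.07%, and for CBD with LPS 2.31% were called in either direction. Of the 5 genes of the immunoproteasome and its activator, 3 were called higher with LPS in control mice. The activator gene Psme1 went from 172 ± 13.2 CPM (SD, n = 4) to 307 ± 75.5 CPM (SD, n = 4) (log2 fold change 0.83, SE 0.18, adjusted p = 0.00229) and kept its call without any single library. Psmb10 (0.60, adjusted p = 0.0387) and Psme2 (0.75, adjusted p = 0.046) each lost theirs in 6 of the 8 fits without 1 library, all but those without replicate 2 of either group, and without the 3 neutrophil-high libraries. With the ribosomal sum as a covariate in the edgeR fit, none of these 3 genes passed. Their log2 fold changes were then 0.29, -0.02 and 0.00 (adjusted p = 0.075, 0.907 and 0.999). Psmb8 stood at 213 ± 21.2 CPM (SD, n = 4) and 296 ± 70.1 CPM (SD, n = 4) and was not called (0.48, adjusted p = 0.0913).

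Psmb9, which replaces Psmb6 at the caspase-like site, was not called in control mice (-0.05, adjusted p = 0.878) and was lower with LPS in GW mice. It measured 155, 82.4, 99.6 and 88.5 CPM in GW-PBS and 70.4, 44.6 and 58.4 CPM in GW-LPS, a fall by 0.88 on the log2 scale (SE 0.19, adjusted p = 0.00645), and the groups did not overlap. Its call held without any single library and was lost when only these groups were fitted. Per kilobase of exon, the ratio of Psmb9 to Psmb6 was 0.23 ± 0.02 in Ctrl-PBS and 0.17 ± 0.03 in Ctrl-LPS (SD, n = 4 each). It was 0.23 ± 0.02 (n = 4) in GW-PBS and 0.15 ± 0.01 (n = 3) in GW-LPS, and 0.25 ± 0.02 (n = 3) in GW-CBD-PBS and 0.19 ± 0.03 (n = 4) in GW-CBD-LPS. In each of the 3 arms every LPS library had a lower ratio than every PBS library. The gap was small in CBD-treated GW mice, where the highest LPS ratio was 0.219 and the lowest PBS ratio 0.224. How many other gene pairs separate in this way was not counted. The ratio of Psmb8 to Psmb5 overlapped between PBS and LPS in control mice (0.53 ± 0.04 and 0.52 ± 0.01, n = 4 each) and was lower in every LPS library in GW mice (0.57 ± 0.07, n = 4, and 0.43 ± 0.05, n = 3) and in CBD-treated GW mice (0.58 ± 0.03, n = 3, and 0.51 ± 0.04, n = 4). The highest LPS and lowest PBS ratios of Psmb8 to Psmb5 were 0.487 and 0.495 in GW mice, and 0.551 and 0.554 in CBD-treated GW mice. The ratio of Psmb10 to Psmb7 overlapped in control mice (7.19 ± 0.40 and 7.65 ± 0.22, n = 4 each). It also overlapped in GW mice (7.52 ± 0.49, n = 4, and 7.64 ± 0.94, n = 3) and in CBD-treated GW mice (6.74 ± 0.22, n = 3, and 7.45 ± 0.94, n = 4). The size of these ratios depends on the gene length used: with principal transcript lengths in Ctrl-PBS, Psmb8 to Psmb5 was 1.09 ± 0.08, Psmb10 to Psmb7 was 3.17 ± 0.17 and Psmb9 to Psmb6 was 0.27 ± 0.02 (n = 4 each), so which of Psmb8 and Psmb5 is higher turns with it. The length cancels in a comparison between libraries. These ratios are descriptions and were not tested.

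Among the other activators, Psme3, which encodes a nuclear activator of the core, was called higher with LPS in control mice (0.41, SE 0.11, adjusted p = 0.00847) and in GW mice (0.53, SE 0.11, adjusted p = 0.00552). The call in control mice was lost without Ctrl-LPS replicate 3, without the 3 neutrophil-high libraries and with no filter on low counts. Both calls were lost with only the groups compared. In CBD-treated GW mice it stood at 110.5 ± 3.56 CPM (SD, n = 3) and 114 ± 12.8 CPM (SD, n = 4). Psme4, another nuclear activator, stayed between 19.6 and 22.3 CPM as group means. None of 5 tested assembly chaperone genes was called in any LPS comparison by edgeR, and Pomp, needed for core assembly, stood at 139.8 ± 18.9 CPM (SD, n = 4) and 171 ± 41.8 CPM (SD, n = 4).

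Of 6 further subunits and bound enzymes, the deubiquitinase gene Uchl5 (0.59, SE 0.13, adjusted p = 0.00244) and the ubiquitin receptor gene Adrm1 (0.45, SE 0.14, adjusted p = 0.0218), whose products bind each other on the particle, were called higher with LPS in control mice. The call of Adrm1 was lost on leaving out Ctrl-LPS replicate 1 or either of Ctrl-PBS replicates 3 and 4, and without the 3 neutrophil-high libraries. With ribosomal protein sum as covariate, neither passed, with Uchl5 at 0.28 (adjusted p = 0.0557) and Adrm1 at 0.09 (adjusted p = 0.558). The deubiquitinase gene Usp14 stood at 73.2 ± 3.42 CPM (SD, n = 4) and 88.2 ± 12.2 CPM (SD, n = 4) and was not called.

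In the list of transcription and processing genes, Nfe2l1 was not called in any LPS comparison and stood at 74.1 ± 16.5 CPM (SD, n = 4) and 86.0 ± 15.1 CPM (SD, n = 4), and at 73.5 ± 31.7 CPM (SD, n = 4) and 112 ± 2.12 CPM (SD, n = 3). Ddi2, the protease that frees Nfe2l1, was called higher with LPS in GW mice (0.64, SE 0.18, adjusted p = 0.0288), at 22.4, 27.5, 22.2 and 23.9 CPM in GW-PBS and 27.1, 52.5 and 32.4 CPM in GW-LPS. These groups overlapped at one end, and the call was lost without GW-PBS replicate 1, 3 or 4 or GW-LPS replicate 3. Mafk, which encodes a small partner factor, was called with it (0.70, adjusted p = 0.0347). Its paralog Mafg was called higher with LPS in control mice (0.47, adjusted p = 0.038) and lower with CBD under LPS (-0.68, SE 0.17, adjusted p = 0.0359), at 108, 182 and 113 CPM in GW-LPS and 69.1, 89.6, 99.5 and 77.7 CPM in GW-CBD-LPS. The call of Mafg was lost in 6 fits without 1 library in control mice and in 4 with CBD (without GW-LPS replicate 3 or 4 or GW-CBD-LPS replicate 1 or 4), and that of Mafk in 4 (without GW-PBS replicate 1 or 4 or GW-LPS replicate 3 or 4). Of 10 genes for delivery and unfolding, Ufd1 was called higher in control mice (0.33, adjusted p = 0.0358) and Ubqln4 in GW mice (0.64, adjusted p = 0.0334), each lost in 6 such fits. That was 1 of 10 genes in each case, against 10.8% of all genes in control mice and 4.45% in GW mice. Without the 3 neutrophil-high libraries, the calls of Mafg and Ufd1 in control mice and of Ddi2, Mafk and Ubqln4 in GW mice were lost.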

How the data were processed

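Sorted microglia of 22 libraries in 6 groups were measured by RNA-seq. The authors deposited 1 table of raw counts per gene with 54532 genes. The submitters' processing notes name GRCm38 and mm10, and the labels' protocols give poly(A)-enriched stranded libraries of 150 bp pairs. The aligner, the counter and its strand setting were not given in the sources used here.

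Groups were taken from the labels. Counts were scaled with TMM factors, filtered with filterByExpr and tested with edgeR 4.0.16 (R 4.3.3) in 1 quasi-likelihood fit of 6 group means, with 9 two-sided contrasts. P-values were Benjamini-Hochberg adjusted over 16554 genes, with 0.05 as the threshold. Tested genes held at least 99.9% of counts in each library, and the common biological coefficient of variation was 0.352. The SE of a log2 fold change was its size divided by the square root of F. CPM of single genes used TMM factors. So did the summed CPM of the core and regulatory particle genes and the ribosomal protein sum. Sums over the other lists used library totals, and particle means used log2 CPM with a prior count of 2. The script was tested on simulated data.

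Alternatives were DESeq2 1.42.0, limma 3.58.1 voom with quality weights, RLE size factors, no filter, a replicate block, the ribosomal protein sum as a covariate, only the groups compared, the data without 3 libraries with raised neutrophil markers, and each library left out. Called genes were named in order of p up to 10, or the 3 smallest p where none was called. Psmb5, Psmb6, Psmb7, Psmd1, Psmd2, Psmd4 and Psmd14 were always given, and all members were accounted for. Of the other lists, up to 4 called genes were named by p, besides index genes such as Psmb8, Psmb9, Psme1 and Nfe2l1. The genes, lists and tests were chosen with earlier results of these data known. The floor of 3 counts covers counting error only. Figures were drawn with matplotlib 3.10.9. The list of ubiquitin genes is not reported here.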

Additional observations from a re-analysis of the deposited data

Results flagged for a closer look

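Of 152 groups of 4 libraries, 2 held a library that stood apart from the other 3 by Dixon's test at the 95% level, for which chance flags about 1 in 20 groups. Psma3, an alpha ring gene, had a log2 CPM of 6.71 in Ctrl-PBS replicate 2, against 6.39 to 6.43 in the 3 other Ctrl-PBS libraries. Psmb7, the gene of the trypsin-like subunit, had a log2 CPM of 5.85 in GW-CBD-LPS replicate 4, against 5.02 to 5.14 in the 3 others.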

How the results depend on the processing

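Among the 35 genes, the 17 calls for LPS in control mice became 28 with limma voom, 9 with ribosomal protein sum as covariate, 10 with only the groups compared, 5 without the 3 neutrophil-high libraries, and 8 to 24 in leave-one-out fits. The 1 call for LPS in GW mice became 2 with DESeq2, 6 with limma voom, 5 with the covariate, 0 with only the groups compared, and 0 to 2 in leave-one-out fits. The share of all genes called higher moved too. In control mice it was 10.8% in the main fit, 15.4% with limma voom, 11.8% with the covariate and 7.11% without the 3 libraries. In GW mice it was 4.45%, and 6.71% with DESeq2, 10.9% with limma voom and 9.78% with the covariate. The shares with only the groups compared and with the replicate block are not given here. Limma voom called 21 genes for LPS in CBD-treated GW mice and 1 each for GW exposure with LPS, CBD with LPS and the interaction of CBD and LPS, and the covariate called 2 for CBD with LPS. Without the 3 libraries, the medians of the interaction of GW exposure and LPS moved to -0.24 (core) and -0.18 (regulatory). Principal transcript length, chosen after the data were seen, gave level medians of 79.1 (core) and 59.7 (regulatory) CPM per kilobase. Signs turned with the covariate for LPS in control mice in Psma4 (-0.005), Psmb5 (-0.24), Psmb6 (-0.25) and Psmb7 (-0.12), and for CBD without LPS in Psmb5 (0.01), Psmb7 (0.25), Psmd4 (0.18) and Psmd14 (0.125). Of the 7 genes always given, the covariate also turned Psmb5 (-0.09), Psmb7 (-0.12) and Psmd14 (-0.04) for GW exposure without LPS, Psmb5 (0.12) and Psmb6 (0.065) for GW exposure with LPS, and Psmb7 (-0.25) and Psmd4 (-0.08) for LPS in CBD-treated GW mice. It turned Psmb5 (0.21), Psmb6 (0.04) and Psmd2 (-0.15) in the interaction of GW exposure and LPS, and Psmb7 (-0.014), Psmd1 (0.008), Psmd4 (-0.11) and Psmd14 (-0.006) in that of CBD and LPS. Psmd6 turned for GW exposure without LPS without the 3 libraries (-0.012). For LPS in GW mice, Psmb5 turned with limma voom (0.20), with the replicate block (0.024), without the 3 libraries (0.15) and in leave-one-out fits (-0.23 to 0.15), and Psmd4 with RLE size factors and DESeq2 (-0.001 each) and in leave-one-out fits (-0.065 to 0.13). The cause of these changes was not tested. Replicate numbers did not pair the libraries (correlations of same-numbered deviations from -0.29 to 0.15), and the fit with the replicate block called 15 genes for LPS in control mice, 1 in GW mice and 0 in the other comparisons. Counts were lowest for Psmb11, at 0, and next for Psma8, at 114 to 400 per library.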
